A study of Mus musculus with 8 samples.

Results

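Pyroptosis and necroptosis are lytic forms of regulated cell death, and 10 genes of their core machinery were described here across the cells of the sham-operated and the reperfused mouse heart. In pyroptosis, a sensor such as NLRP3 joins with the adaptor ASC to activate caspase-1, which matures interleukin-1β and cuts gasdermin D so that it forms pores in the plasma membrane. In necroptosis, RIPK1 or the nucleic acid sensor ZBP1 engages RIPK3, which phosphorylates MLKL so that it ruptures the membrane, while caspase-8 restrains this route. Macrophages, monocytes and neutrophils are known for an inducible inflammasome, and dying cardiac cells are among its known triggers. The 10 genes were taken by symbol from the 27998 genes of the matrices: *Nlrp3*, *Pycard*, *Casp1*, *Casp4*, *Gsdmd*, *Casp8*, *Ripk1*, *Ripk3*, *Mlkl* and *Zbp1*. All 10 were present in both matrices.

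Left ventricles of male mice on a C57BL/6 background, aged 10 to 12 weeks, were dissociated 6 h after ischemia–reperfusion (IR; 30 min of coronary ligation, then release) or sham surgery, and single cells were sequenced with the droplet-based Chromium 3′ chemistry. Each condition has 4 samples of 3 pooled hearts, but its matrix does not tell them apart, so each condition was 1 library and no ratio has a replicate check. Samples labelled 0 h were taken as the sham hearts, although the labels do not equate the terms. The sham matrix holds 11620 barcodes and the IR matrix 8539. Of these, 9777 and 4880 passed the limits stated in the study's methods (200 to 2500 genes, at most 30% mitochondrial unique molecular identifiers, UMIs). The paper reports more cells after its quality control in both conditions, so the cells kept here are not the same set. Without the upper limit on genes, 11377 and 8260 passed. The libraries shared 30 barcodes. The 9777 and 4880 cells within all limits held 21679 UMIs of the 10 genes in sham and 25665 in IR.

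Cells were assigned to classes from their UMIs of marker genes, none of which is among the 10, and each class is called by the markers it carries ("neutrophil-like"). Levels are UMIs of a gene summed over a class and divided by the class total, in UMIs per 1000000 UMIs (CPM), with a 95% exact Poisson interval in parentheses. Ratios of IR to sham are on the log2 scale with a 95% exact interval. Both intervals cover counting error only. The MerTK+ macrophage-like class had 2863 sham and 369 IR cells, the CCR2+ monocyte-like class 237 and 298, and the neutrophil-like class 225 and 2155. The class called other macrophage/monocyte (58 and 39 cells) had macrophage markers without a clear lead of either panel, and *Ppbp*, a platelet gene, led its IR cells. The upper limit of 2500 genes removed 59.1% of the MerTK+ macrophage-like, 75.0% of the CCR2+ monocyte-like and 88.9% of the fibroblast-like cells of IR, against 7.82%, 31.7% and 14.5% in sham, so values without that limit are given beside many of the results.

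The levels differed between the 10 genes and between classes in a way that the map of levels shows at a glance. *Nlrp3* was highest in neutrophil-like cells, *Pycard* of sham in NK-like cells, and *Casp1*, *Gsdmd* and *Zbp1* of sham in CCR2+ monocyte-like cells. *Mlkl* of IR was highest in endothelial-like cells. For *Casp1* and *Gsdmd* of sham and *Mlkl* of IR, the interval of the leading class overlapped that of the next. Between the libraries, a gene counts as different where its level was at least 2-fold apart, and it was tested where the mean of both levels reached 10 CPM. Of 83 such comparisons over the 10 genes and 11 classes, 33 passed, 17 higher and 16 lower in IR, and in 28 of the 33 the counting interval also excluded a ratio of 1. *Nlrp3* and *Zbp1* alone made up 19 of the 33, *Nlrp3* higher in 10 of 10 classes and *Zbp1* lower in 9 of 9.

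**Figure D1:**
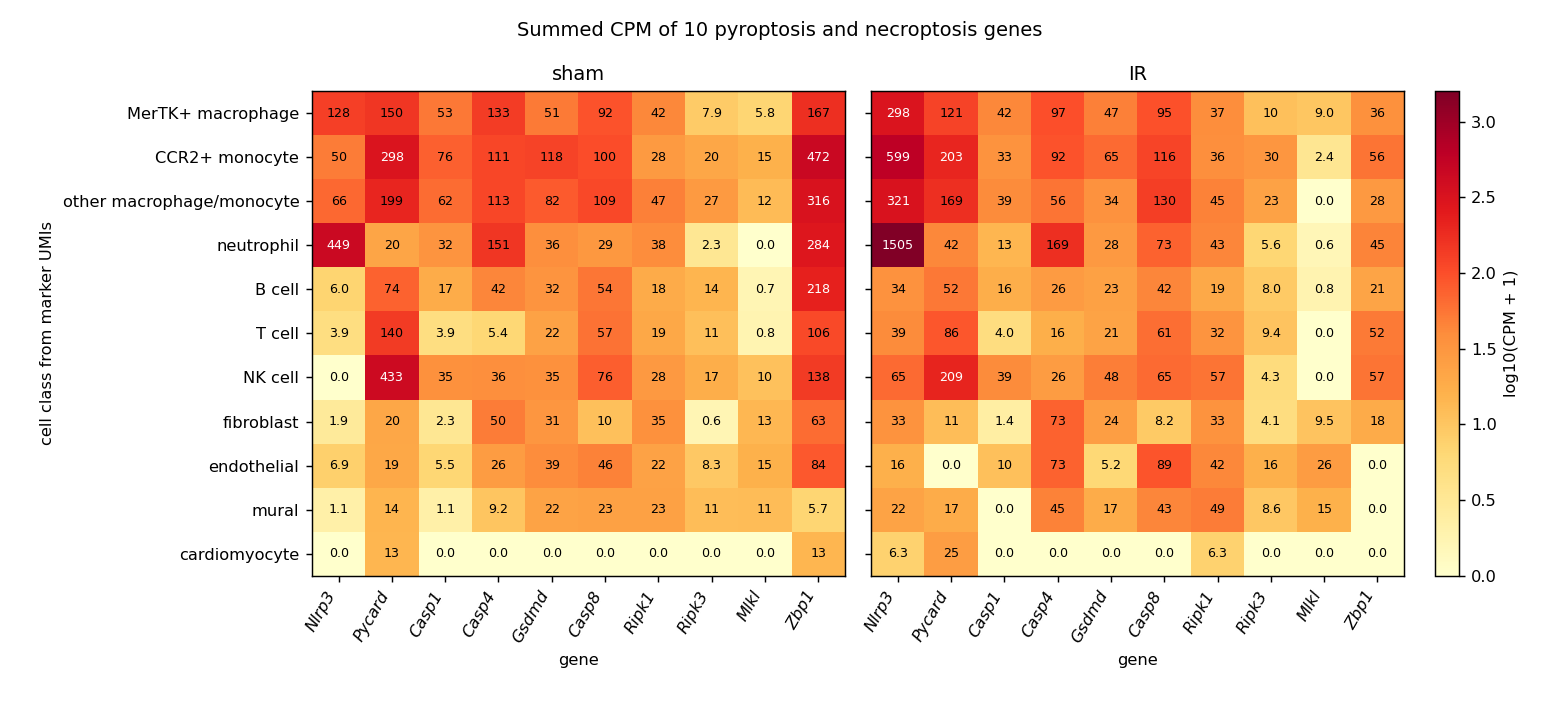
Levels of the 10 genes (columns) in 11 cell classes (rows) of the sham and IR libraries, as CPM printed in each cell and colored by log10(CPM + 1). *Nlrp3* of neutrophil-like cells went from 449 in sham to 1505 in IR, and *Zbp1* of CCR2+ monocyte-like cells from 472 to 55.9.

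How often all genes passed the same limit sets the scale for these counts. In MerTK+ macrophage-like cells, 8 of the 10 genes were tested, 1 was higher and 1 lower in IR, beside 9.23% and 4.72% of all genes tested. In CCR2+ monocyte-like cells, 1 of 9 was higher and 2 were lower, beside 11.4% and 18.1%. In neutrophil-like cells, 3 of 8 were higher and 2 lower, beside 13.2% and 17.1%. The median log2 ratio of the genes tested was −0.24, −0.27 and 0.17 in these 3 classes, against 0.17, −0.20 and −0.22 over all genes. Apart from *Nlrp3* and *Zbp1*, 0 of 6 genes passed in the MerTK+ macrophage-like, 1 of 7 in the CCR2+ monocyte-like and 3 of 6 in the neutrophil-like cells.

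In the lymphocyte-like classes, most of the counts again came from *Nlrp3* and *Zbp1*. B cell-like cells had 1 of 9 genes higher and 1 lower, beside 3.73% and 2.98% of all genes, and T cell-like cells had 2 of 8 higher and 1 lower, beside 5.55% and 2.99%. NK-like cells had 2 of 9 higher and 3 lower, beside 20.2% and 7.92%. Among the stromal classes, fibroblast-like cells had 1 of 7 higher and 1 lower, beside 12.9% and 12.1%. Endothelial-like cells had 2 of 8 higher and 2 lower, beside 14.8% and 13.1%, and mural-like cells had 3 of 7 higher and 0 lower, beside 9.66% and 8.6%. The other macrophage/monocyte class had 1 of 9 higher and 3 lower, beside 15.2% and 19.9%. In cardiomyocyte-like cells, 9 of the 10 genes were under the limit for testing, with 34 and 46 cells and a floor of 40.4 CPM in sham for a count of 0.

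*Nlrp3* encodes the sensor of the canonical inflammasome, a protein induced by priming signals before it is activated. The gene lies on chromosome 11 (GRCm38, 59541568 to 59566956, plus strand). In MerTK+ macrophage-like cells its level was 128 (122 to 134) in sham and 298 (277 to 321) in IR, a 2.33-fold difference (log2 ratio 1.22, 1.09 to 1.35). In CCR2+ monocyte-like cells it was 49.7 (38.9 to 62.6) in sham and 599 (567 to 633) in IR, a 12.05-fold difference (3.59, 3.25 to 3.95). In neutrophil-like cells it was 449 (389 to 516) and 1505, a 3.35-fold difference (1.74, 1.54 to 1.95). All 3 classes thus held more *Nlrp3* per UMI in IR, and in IR the CCR2+ monocyte-like cells stood above the MerTK+ macrophage-like cells while in sham they stood below them. Without the upper limit on genes the ratio in CCR2+ monocyte-like cells was 2.94, with levels of 70.2 and 538. In the other macrophage/monocyte class, *Nlrp3* was 66.4 in sham and 321 in IR.

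The order of the classes for *Nlrp3* was led by neutrophil-like cells in both libraries. Their level in sham was 3.51 times that of the next class, the MerTK+ macrophage-like cells, and in IR it was 2.51 times that of the CCR2+ monocyte-like cells, with no overlap of the intervals. With each cell thinned to 1000 UMIs, 31.5% (25.3 to 38.2) of sham and 67.5% (65.5 to 69.6) of IR neutrophil-like cells had a *Nlrp3* UMI. The shares were 4.64% (2.34 to 8.15) and 34.6% (29.2 to 40.3) in CCR2+ monocyte-like cells and 10.46% (9.36 to 11.6) and 18.6% (14.8 to 23.0) in MerTK+ macrophage-like cells. In fibroblast-like cells, given for comparison, 0.176% and 3.77% of thinned cells had a UMI. Before thinning, the shares were 46.2% and 89.2% in neutrophil-like cells (median UMIs 1616 and 3937) and 0.832% and 9.58% in fibroblast-like cells (median UMIs 4942.5 and 4331).

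**Figure D2:**
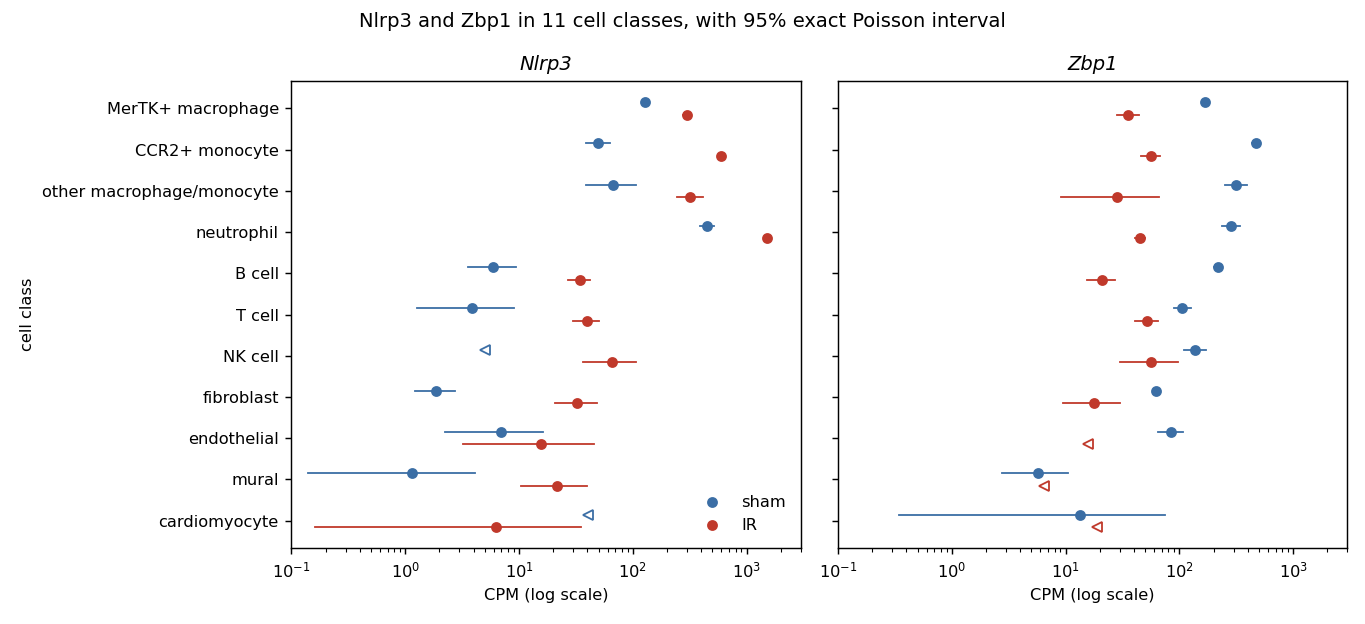
Levels of *Nlrp3* (left) and *Zbp1* (right) in CPM on a log scale for 11 cell classes, sham in blue and IR in red, with 95% exact Poisson intervals as lines. Open triangles mark classes with 0 UMIs, drawn at the level of 3 UMIs. *Nlrp3* of IR lies to the right of sham in 10 classes, and *Zbp1* of IR lies to the left in the 9 classes tested.

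*Nlrp3* was also higher in the IR classes that are not myeloid, where its levels were far lower. B cell-like cells had 5.97 in sham and 34.0 in IR, T cell-like cells 3.88 and 39.5, and fibroblast-like cells 1.86 and 32.7. NK-like cells had 0 UMIs in sham and 15 UMIs in IR, 13.1-fold higher when the sham count is set to 3 UMIs. The log2 interval on the counts as they are began at 3.23. Mural-like cells had 2 and 10 UMIs (log2 ratio 4.23, 1.999 to 7.46), and endothelial-like cells had 5 and 3 UMIs, with an interval that includes 1. Transcripts of neutrophils moved in the same direction in these classes. Summed *S100a8* and *S100a9*, the most abundant neutrophil markers, were 44.4 and 748 CPM in B cell-like cells, 97.7 and 675 in T cell-like cells, 43.6 and 645 in fibroblast-like cells, and 41.9 and 572 in mural-like cells. Of the 10 neutrophil markers, all 10 had a UMI in the IR cells of these 4 classes, and 9 or 10 had one in sham. Their summed level was 70.6 in sham and 973 in IR in B cell-like cells and 136 and 939 in T cell-like cells, but 873 and 999 in fibroblast-like and 926 and 1106 in mural-like cells. NK-like cells had UMIs of 4 markers in sham and 10 in IR, at 38.2 and 809, and endothelial-like cells of 6 and 9, at 91.2 and 625.

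The ratio of *Nlrp3* to these neutrophil transcripts was not the same in every class. In IR, neutrophil-like cells had 1.202 *Nlrp3* UMIs per 100 UMIs of *S100a8* and *S100a9*. The ratio was 4.55 in B cell-like, 5.85 in T cell-like, 5.06 in fibroblast-like, 3.76 in mural-like and 10.6 in NK-like cells, and 52.5 in MerTK+ macrophage-like and 57.7 in CCR2+ monocyte-like cells. Cells without any UMI of *S100a8* or *S100a9* were few in IR. In them, *Nlrp3* was 127 in sham and 443 in IR for MerTK+ macrophage-like cells (2533 and 29 cells), 43.2 and 488 for CCR2+ monocyte-like cells (186 and 31 cells), and 5.91 and 50.01 for B cell-like cells (976 and 78 cells). In these 3 classes the level was higher in IR, for B cell-like cells on 16 and 11 *Nlrp3* UMIs. The 29 IR cells of the MerTK+ macrophage-like class were under the minimum number set for a class. Without the upper limit on genes, that class had 120 and 242 (192 to 301), on 2732 and 46 cells. This IR interval did not overlap the one with the limit (341 to 565), so the size of the difference depended on the filter. CCR2+ monocyte-like cells had 49.7 and 497 without the limit, and B cell-like cells 6.83 and 47.5. T cell-like cells without the 2 transcripts had 3 and 2 *Nlrp3* UMIs, NK-like cells 0 and 1, and mural-like cells 2 and 1, too few to compare. In fibroblast-like cells without the 2 transcripts, 21 UMIs in sham and 1 UMI in IR gave a log2 ratio of 2.39 with an interval of −2.98 to 5.02. Without the upper limit on genes, 28 and 5 UMIs gave levels of 1.75 (1.16 to 2.53) and 12.6 (4.09 to 29.4). The part of free neutrophil RNA in the *Nlrp3* counts was not tested in any class.

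**Figure D3:**
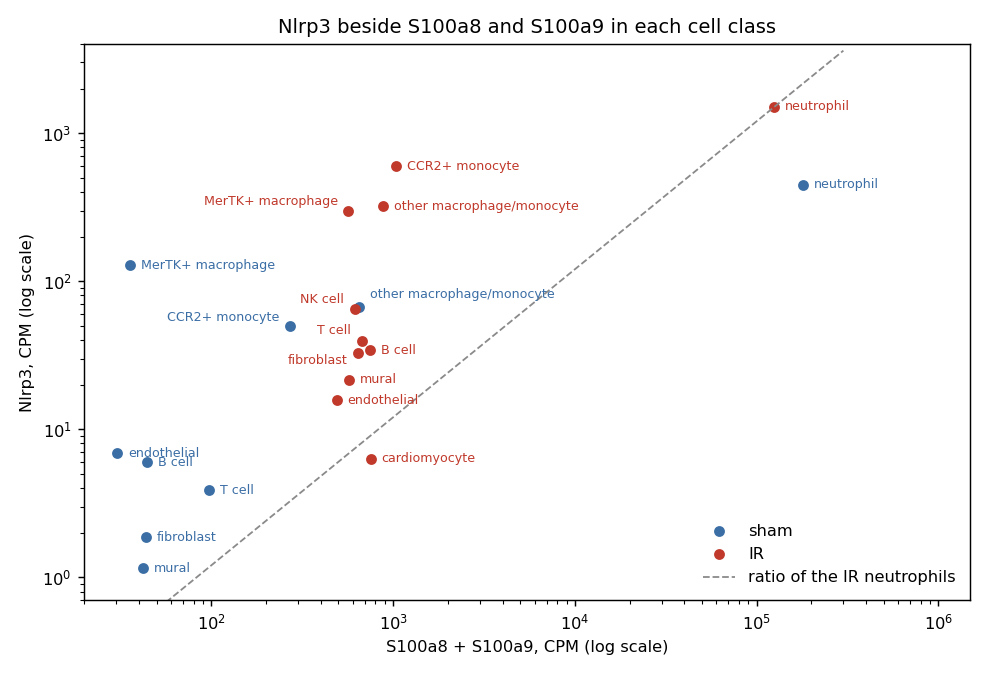
*Nlrp3* against summed *S100a8* and *S100a9*, both in CPM on log scales, with 1 point per cell class and library that had a *Nlrp3* UMI. The dashed line carries the ratio of IR neutrophil-like cells (1.202 *Nlrp3* UMIs per 100), and the IR lymphocyte-like, fibroblast-like, endothelial-like and mural-like cells lie above it, at 489.6 to 748 CPM of *S100a8* and *S100a9*, while the IR cardiomyocyte-like cells (1 *Nlrp3* UMI) lie below it.

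The promoters of the members were searched for 3 motifs of inflammatory transcription factors. RefSeq windows of 300 bases on GRCm38.p6, from 250 bases before to 50 after a transcript start, matched 8 of the 10 genes by symbol, all except *Gsdmd* and *Zbp1*. The κB motif, the letters bound by NF-κB, was searched on both strands and was found in 4.51% of all 32851 windows. It was found in 1 of 2 windows of *Nlrp3* and in both windows of *Casp4*, and in none of the other 6 genes. The windows are shown because they are the only member promoters with a match, which is in capitals. In *Casp4* 2 matches overlap and form 1 run. A match is a description of the letters and not of binding. Members without a match in these windows were also at least 2-fold higher in IR in a class, among them *Pycard* and *Casp8* in neutrophil-like cells and *Ripk1* in mural-like cells, and *Casp4* was lower in the other macrophage/monocyte class.
Nlrp3, chr11:59541319-59541618, plus strand: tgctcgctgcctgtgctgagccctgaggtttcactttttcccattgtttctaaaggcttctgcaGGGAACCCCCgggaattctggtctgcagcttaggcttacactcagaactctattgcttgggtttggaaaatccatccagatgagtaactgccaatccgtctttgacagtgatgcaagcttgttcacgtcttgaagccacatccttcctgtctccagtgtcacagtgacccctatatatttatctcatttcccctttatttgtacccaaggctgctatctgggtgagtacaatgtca
Casp4, chr9:5308599-5308898, plus strand: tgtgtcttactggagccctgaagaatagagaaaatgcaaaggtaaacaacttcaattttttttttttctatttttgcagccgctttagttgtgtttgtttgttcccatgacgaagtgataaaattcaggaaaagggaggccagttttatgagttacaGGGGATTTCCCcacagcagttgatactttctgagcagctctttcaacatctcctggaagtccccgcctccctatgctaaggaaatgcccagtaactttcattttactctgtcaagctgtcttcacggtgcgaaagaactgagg
The interferon-stimulated response element (ISRE), in 3.44% of all windows, and the interferon-γ activated site (TTCNNNGAA), in 8.30%, were each found in 1 of 2 windows of *Ripk1* and in no other member window.

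*Pycard* encodes ASC, the adaptor that bridges the sensor and caspase-1 (chromosome 7, 127989708 to 127993867, minus strand). NK-like cells had the highest level in sham, 433 (382 to 489), followed by CCR2+ monocyte-like cells with 298 (270 to 327). In IR the NK-like level was 209 (154 to 277), 2.07-fold lower (log2 ratio −1.05, −1.53 to −0.60), and it no longer stood apart from that of CCR2+ monocyte-like cells, which led without the upper limit on genes at 312. Neutrophil-like cells had far less, 20.3 (9.29 to 38.6) in sham and 42.3 (38.1 to 46.7) in IR, 2.08-fold higher (1.06, 0.12 to 2.20). The adaptor and the sensor thus had opposite extremes, since the class with the most *Nlrp3* had the least *Pycard* of the immune classes in both libraries. In MerTK+ macrophage-like cells *Pycard* was 150 and 121 (−0.31), and in CCR2+ monocyte-like cells 298 and 203 (−0.55). With the cells over 2500 genes included, these 2 ratios were −0.06 (−0.15 to 0.03) and −0.01 (−0.12 to 0.09). T cell-like cells had 140 and 86.3, and without that limit 171 and 160. In the other macrophage/monocyte class the ratio was −0.24, and −1.07 (−1.39 to −0.75) without it.

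*Casp1* encodes the protease of the canonical inflammasome (chromosome 9, 5298517 to 5307265, plus strand). Its levels were 53.1 (49.3 to 57.1) in sham and 41.9 (34.0 to 51.1) in IR in MerTK+ macrophage-like cells (−0.34, −0.66 to −0.03). In CCR2+ monocyte-like cells the level was 76.0 (62.5 to 91.6) in sham and 33.1 (25.8 to 41.9) in IR, 2.29-fold lower (log2 ratio −1.197, −1.65 to −0.75). Without the upper limit on genes the levels there were 69.1 and 43.9, and the ratio of −0.66 (−0.89 to −0.42) no longer passed. In neutrophil-like cells the level was 31.6 (17.3 to 53.0), from 14 UMIs, in sham and 13.5 (11.2 to 16.1) in IR, 2.35-fold lower (−1.23, −2.03 to −0.32). The protease therefore stood lower in the same neutrophil-like cells in which the sensor stood higher. In fibroblast-like, mural-like and T cell-like cells *Casp1* stayed at or under 4.01 CPM in both libraries.

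*Casp4* encodes caspase-11, the mouse protease of the noncanonical route, which binds intracellular lipopolysaccharide (chromosome 9, 5308828 to 5336783, plus strand). Neutrophil-like cells had 151 (117 to 192) and 169 (161 to 178) (log2 ratio 0.16, −0.19 to 0.54). MerTK+ macrophage-like cells had 133 (127 to 139) and 96.7 (84.5 to 110), and CCR2+ monocyte-like cells 111 (94.7 to 130) and 92.3 (79.8 to 106). None of these 3 classes passed the 2-fold limit. The stromal classes differed more. Endothelial-like cells had 26.3 (15.8 to 41.0) in sham and 72.9 (39.9 to 122) in IR (1.47, 0.37 to 2.55), and mural-like cells had 9.18 (5.25 to 14.9) and 45.2 (28.0 to 69.1) (2.30, 1.29 to 3.34). Without the upper limit on genes the counts were larger, and the levels were 36.9 and 129 in endothelial-like and 11.3 and 77.4 in mural-like cells. *Casp4* was thus at least 2-fold higher in both vascular classes under either filter. Markers of other cells moved with it in part. The 7 shared macrophage and monocyte markers summed to 116 CPM in sham and 57.3 in IR in endothelial-like cells and to 119 and 103 in mural-like cells. The CCR2+ monocyte panel summed to 92.6 and 177 in endothelial-like and 499 and 1031 in mural-like cells, and the neutrophil panel was higher in IR in both, as given above. Their part in the *Casp4* result was not tested. In fibroblast-like cells *Casp4* was 50.04 and 73.5 (0.55, 0.13 to 0.95), and in T cell-like cells 7 and 24 UMIs (1.57, 0.31 to 3.02). In the other macrophage/monocyte class it was 113 and 56.4 (−1.01, −2.21 to 0.07), and −0.21 without the limit on genes.

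*Gsdmd* encodes gasdermin D, the pore-forming substrate of both caspases (chromosome 15, 75862327 to 75867408, plus strand). Its levels spanned 21.8 to 118 over the 10 classes of sham other than cardiomyocyte-like cells. CCR2+ monocyte-like cells had 118 (101 to 137), MerTK+ macrophage-like cells 51.3 (47.5 to 55.2), neutrophil-like cells 36.1 (20.6 to 58.6) and fibroblast-like cells 30.5 (27.7 to 33.6). In IR the levels of these classes were 64.9 (54.5 to 76.7), 46.6 (38.3 to 56.3), 28.5 (25.1 to 32.2) and 24.5 (14.5 to 38.7). The log2 ratio in CCR2+ monocyte-like cells was −0.87 (−1.20 to −0.53), and the intervals of the other 3 classes included 0. On the larger counts without the limit on genes, fibroblast-like cells had a ratio of −0.72 (−0.91 to −0.54) and MerTK+ macrophage-like cells −0.24 (−0.42 to −0.07). *Gsdmd* passed the 2-fold limit, lower in IR, in endothelial-like cells on 28 and 1 UMIs (−2.89, −8.25 to −0.30) and in the other macrophage/monocyte class on 21 and 6 UMIs (−1.28, −2.88 to 0.08). With the cells over 2500 genes included, the endothelial-like levels were 36.0 and 24.0, with a ratio of −0.58 (−1.49 to 0.27), and the ratio of the other macrophage/monocyte class was −0.985, so that neither passed.

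**Figure D4:**
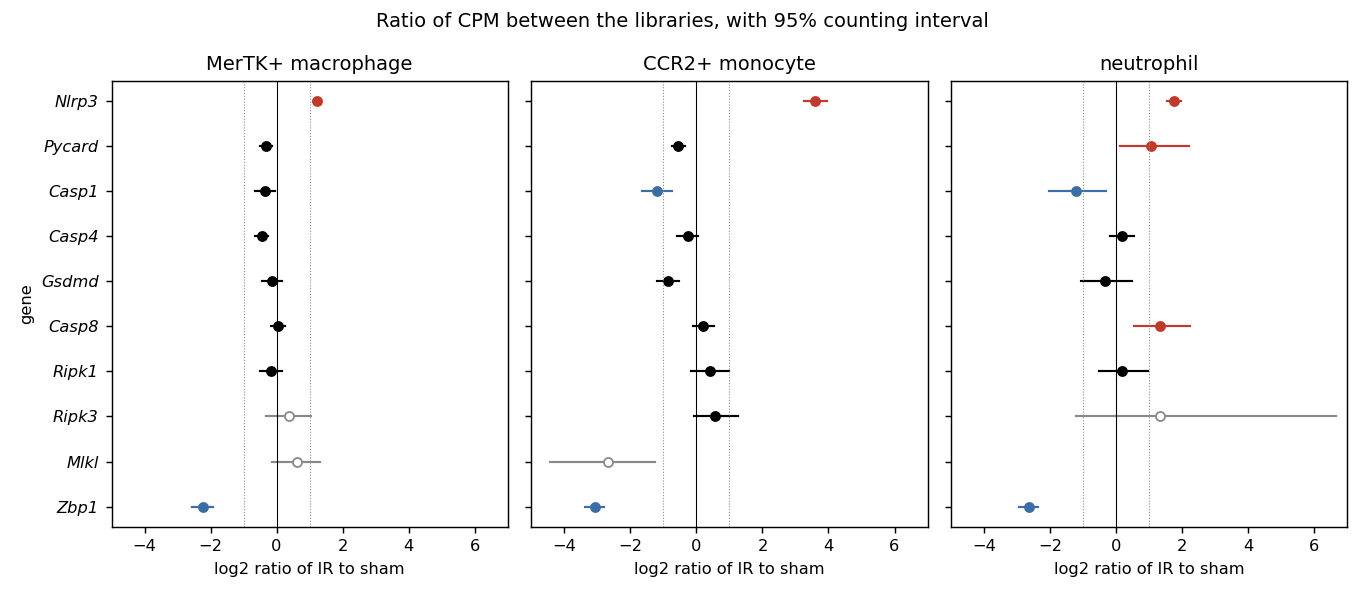
Log2 ratios of IR to sham for the 10 genes (rows) in MerTK+ macrophage-like, CCR2+ monocyte-like and neutrophil-like cells, with 95% exact counting intervals. Red and blue points are at least 2-fold higher and lower, black points are within 2-fold, open grey points were under the limit for testing, and dotted lines mark 2-fold. *Mlkl* of neutrophil-like cells has no point, with 0 UMIs in sham. *Nlrp3* lies at 1.22, 3.59 and 1.74, and *Zbp1* at −2.23, −3.08 and −2.66.

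*Casp8* encodes the protease that holds necroptosis in check and can start apoptosis (chromosome 1, 58795374 to 58847503, plus strand). Its levels in MerTK+ macrophage-like cells were 91.6 (86.6 to 96.8) in sham and 95.4 (83.3 to 109) in IR, and in CCR2+ monocyte-like cells 100 (84.5 to 118) and 116 (102 to 131). Both ratios, 0.06 and 0.21, had intervals that include 0. Neutrophil-like cells differed, with 29.3 (15.6 to 50.2), from 13 UMIs, in sham and 73.2 (67.7 to 79.0) in IR, 2.49-fold higher (1.32, 0.53 to 2.24). Endothelial-like cells had 45.6 (31.4 to 64.1) and 88.6 (51.6 to 142), just under the 2-fold limit. Fibroblast-like cells had the least among the classes with over 100 cells in both libraries, 10.47 in sham and 8.17 in IR, the latter on 6 UMIs. With the 88.9% of IR fibroblast-like cells over 2500 genes included, the levels were 11.97 and 17.02 (0.51, 0.27 to 0.75), in the opposite direction.

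*Ripk1* encodes the kinase that relays death receptor signals toward survival, apoptosis or necroptosis (chromosome 13, 34002363 to 34037147, plus strand). It overlaps *Serpinb6a* on the opposite strand and the processed pseudogene *Gm17084* on the same strand, and *Casp8* overlaps *Gm37760* on the same strand. How strand and overlaps were used in counting is not given in the sources used here. In sham, *Ripk1* ranged from 17.6 in B cell-like cells to 46.8 in the other macrophage/monocyte class, leaving out cardiomyocyte-like cells, which had 0 UMIs. MerTK+ macrophage-like cells had 41.8 (38.5 to 45.4) and 37.2 (29.8 to 45.9), CCR2+ monocyte-like cells 27.6 (19.7 to 37.6) and 36.5 (28.8 to 45.6), and neutrophil-like cells 38.4 (22.4 to 61.4) and 43.4 (39.2 to 47.9). None of the 3 intervals of the ratio excluded 0. Mural-like cells had 22.9 (16.4 to 31.2) in sham and 49.5 (31.4 to 74.3) in IR, 2.16-fold higher (1.11, 0.30 to 1.88). In NK-like cells the ratio of 1.003 on 17 and 13 UMIs had an interval of −0.16 to 2.13, and it was 0.84 without the limit on genes.

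*Ripk3* encodes the kinase that phosphorylates MLKL (chromosome 14, 55784995 to 55788865, minus strand), and its levels were low throughout. CCR2+ monocyte-like cells had 20.04 (13.4 to 28.8) in sham and 29.8 (22.9 to 38.2) in IR, with a ratio of 0.57 (−0.08 to 1.26). On all 347 and 1192 cells, without that upper limit, the levels there were 16.6 (12.2 to 22.0) and 36.9 (33.9 to 40.1), with a ratio of 1.15 (0.73 to 1.61). MerTK+ macrophage-like cells had 7.89 and 10.3, and 8.50 and 13.9 without that limit (0.71, 0.35 to 1.07). The interval thus excluded a ratio of 1 in both classes once the cells with many genes were counted, and the 2-fold limit was passed in the CCR2+ monocyte-like cells. Fibroblast-like cells had 9 UMIs in 2884 sham cells, or 0.645 CPM (0.295 to 1.22), and with the cells of many genes included 17 and 146 UMIs gave 0.921 and 6.44 (2.81, 2.08 to 3.62). Neutrophil-like cells had 1 UMI in sham and 50 in IR, 2.26 and 5.60 CPM. In NK-like cells, 10 and 1 UMIs gave a ratio of −1.93 with an interval that includes 0.

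*Mlkl* encodes the executor that breaks the membrane in necroptosis (chromosome 8, 111311797 to 111338177, minus strand). Its 3 highest levels of IR were in stromal classes, but the interval of each of the 3 included the level of MerTK+ macrophage-like cells. The latter had 5.84 in sham and 8.99 in IR, on 80 and 21 UMIs, under the limit for testing. Endothelial-like cells had 15.2 (7.59 to 27.2) in sham and 26.0 (8.46 to 60.8) in IR, fibroblast-like cells 12.8 (11.02 to 14.9) and 9.53 (3.83 to 19.6), and mural-like cells 11.5 (7.01 to 17.7) and 15.1 (6.06 to 31.0). No ratio of these 3 passed the 2-fold limit, but in endothelial-like cells without the limit on genes it was 1.15 (0.19 to 2.14), on 17 and 24 UMIs. Neutrophil-like cells had 0 UMIs in sham, which allows up to 6.77 CPM at 3 UMIs, and 5 UMIs in 2155 IR cells, or 0.560 CPM (0.182 to 1.31). B cell-like cells had 2 UMIs in each library. In CCR2+ monocyte-like cells, 22 and 5 UMIs gave levels of 15.2 and 2.37, with a ratio of −2.68 (−4.44 to −1.25), under the limit for testing, and without the upper limit on genes the levels were 9.68 and 5.16 (−0.91, −1.55 to −0.23). By either filter the gene was under the limit for testing there.

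*Zbp1* encodes an interferon-induced sensor of Z-form nucleic acids that can recruit RIPK3 (chromosome 2, 173206612 to 173218923, minus strand). In sham it was abundant in all immune classes. CCR2+ monocyte-like cells had 472 (437 to 509), neutrophil-like cells 284 (237 to 339), B cell-like cells 218 (202 to 235) and MerTK+ macrophage-like cells 167 (160 to 174). In IR these classes had 55.9 (46.2 to 66.9), 45.0 (40.7 to 49.6), 20.8 (15.6 to 27.3) and 35.5 (28.3 to 44.0). The levels were 8.45-fold, 6.33-fold, 10.48-fold and 4.70-fold lower, with log2 ratios of −3.08 (−3.37 to −2.79), −2.66 (−2.95 to −2.36), −3.39 (−3.83 to −2.98) and −2.23 (−2.57 to −1.92). The sham and IR intervals did not overlap in any of these 4 classes.

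The smallest differences of *Zbp1* were in T cell-like and NK-like cells. T cell-like cells had 106 (89.2 to 126) in sham and 51.5 (40.7 to 64.4) in IR (−1.04, −1.47 to −0.63), and NK-like cells had 138 (110 to 171) and 56.5 (30.1 to 96.7) (−1.28, −2.25 to −0.43). Fibroblast-like cells had 62.7 (58.6 to 67.0) and 17.7 (9.42 to 30.3), and the other macrophage/monocyte class 316 and 28.2. In endothelial-like cells, 61 UMIs in sham stood against 0 in IR, 5.395-fold lower when the IR count is set to 3 UMIs. The log2 interval on the counts as they are ended at −2.09. In IR the order of the classes was no longer resolved, since NK-like, CCR2+ monocyte-like and T cell-like cells lay within 56.5 to 51.5 with overlapping intervals. With each cell thinned to 1000 UMIs, 38.8% (32.6 to 45.3) of sham and 4.41% (2.37 to 7.42) of IR CCR2+ monocyte-like cells had a *Zbp1* UMI, and 15.98% (13.8 to 18.3) and 1.46% (0.703 to 2.67) of B cell-like cells. Mural-like cells, the class with the least *Zbp1* among those with over 100 cells, had a UMI in 0.729% of thinned sham cells and in 0 of 107 in IR (exact interval up to 3.39%). Before thinning, the shares in CCR2+ monocyte-like cells were 86.1% and 26.5% (median UMIs 6018 and 7627), and in mural-like cells 1.202% and 0% (median UMIs 1920 and 3779).

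Genes whose pattern was most like that of a member were found by the Pearson correlation of log2(CPM + 10) over the 23 class and library points with at least 30 cells, among 10554 other genes. The points share 2 libraries and have unequal depth, so the values are descriptions. *Trim30a*, *Dtx3l* and *Tap1* were most like *Zbp1* (r = 0.88, 0.87 and 0.86), and *Lilr4b*, *Ccr1* and *Ptafr* most like *Nlrp3* (0.97, 0.97 and 0.96). *Cd48*, *AI662270* and *Fam105a* were most like *Pycard* (0.93, 0.92 and 0.91), *Plcg2*, *Cyba* and *Tm6sf1* most like *Casp1* (0.92, 0.91 and 0.91), and *Trib1*, *Neat1* and *Plekho2* most like *Casp4* (0.91, 0.89 and 0.88). Among the members, *Casp8* was the gene most like *Ripk3* (0.81), followed by *Nipa2* and *Ikbkb* (0.79 and 0.78). *Gas2l1*, *Txndc12* and *Ilk* were most like *Mlkl* (0.88, 0.85 and 0.84), while *Nlrp3* and *Mlkl* had the lowest value of any member pair (−0.26). *Arpc4* and *Prelid1* were most like *Gsdmd* (each 0.90), *Arpc2*, *Crlf2* and *Cfl1* most like *Casp8* (0.90, 0.90 and 0.87), and *Abi1*, *Atp2b1* and *Rac1* most like *Ripk1* (0.90, 0.89 and 0.87).

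Few cells carried UMIs of several members at once at this depth. Among thinned MerTK+ macrophage-like cells, 47.2% in sham and 51.8% in IR had no UMI of any of the 10 genes, and 2.32% and 0.548% had UMIs of 3. In CCR2+ monocyte-like cells 29.5% and 40.3% had none, and in neutrophil-like cells 37.6% and 23.5%. Of these 3 classes, the neutrophil-like cells had a larger share with a member UMI in IR than in sham. Cells with a UMI of both *Ripk3* and *Mlkl* were not detected among the thinned MerTK+ macrophage-like, CCR2+ monocyte-like or neutrophil-like cells of either library, which at this depth does not show that they were absent.

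Dendritic-like cells could be compared only without the upper limit on genes, on 42 sham and 34 IR cells. *Nlrp3* was 13.9 and 128 there (log2 ratio 3.199, 1.91 to 4.87), *Casp1* 47.3 and 18.2 (−1.37, −2.66 to −0.16) and *Casp4* 52.8 and 21.9 (−1.27, −2.45 to −0.15). *Zbp1* was 114 and 65.7 (−0.80, −1.48 to −0.11), within 2-fold, and *Casp8* 64.0 and 109 (0.77, 0.06 to 1.54). Markers of other cells were also higher in the IR cells of this class: the neutrophil panel summed to 16.7 CPM in sham and 1248 in IR, the MerTK+ panel to 192 and 916, and the CCR2+ panel to 762 and 1813, and 0 of the 34 IR cells lacked *S100a8* and *S100a9*. Their part in these differences was not tested.

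The other genes of both routes were described from fixed lists, by count and median. The interferon-induced GTPases listed under the noncanonical route were not split by whether they promote or restrain it. Of these, 7 of 7 were at least 2-fold lower in IR in CCR2+ monocyte-like cells (median log2 ratio −3.13), 7 of 7 in neutrophil-like cells (−2.73) and 7 of 7 in fibroblast-like cells (−2.60). In MerTK+ macrophage-like cells 2 of 6 tested were lower (−0.89), and 5 of 6 without the upper limit on genes (−1.43), in B cell-like cells 2 of 5 (−0.60), and in NK-like cells 0 of 6 (0.47). *Gbp2*, *Irgm1*, *Igtp* and *Gbp3* of CCR2+ monocyte-like cells had log2 ratios of −5.38, −4.41, −3.62 and −2.91. *Gbp2* went from 78.8 to 1.89 CPM there, and *Irgm1* from 161 to 7.58. Without the limit on genes these 2 ratios were −3.53 and −3.55. Of the vascular classes, 6 of 7 GTPases were lower in endothelial-like and 5 of 6 in mural-like cells, where *Casp4* was higher.

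The shares of all genes past 2-fold given above apply to the counts of each list. Among the substrates and products of pyroptosis, 4 of 6 genes tested were higher and 1 lower in CCR2+ monocyte-like cells (median 2.56), and 2 of 7 were higher in both MerTK+ macrophage-like (0.26) and neutrophil-like cells (0.35). *Il1b*, the cytokine that caspase-1 matures, was 1107 in sham and 10773 in IR in CCR2+ monocyte-like cells (3.28), and 1653 and 1982 in MerTK+ macrophage-like cells (0.26). *Il1rn*, which encodes the receptor antagonist, was 44.2 and 733 in CCR2+ monocyte-like cells (4.05), and *Ninj1*, whose product breaks the membrane late in lytic death, was 140 and 500.0 (1.83). *Il1a* of neutrophil-like cells had 1 UMI in sham and 4373 in IR (7.76, 5.28 to 13.1). *Il18*, the other cytokine that caspase-1 matures, was instead 82.9 and 28.9 in CCR2+ monocyte-like cells (−1.52), a value chosen after it was seen. Without the limit on genes it was −0.98, so that 4 genes of the list were higher and 0 lower.

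**Figure D5:**
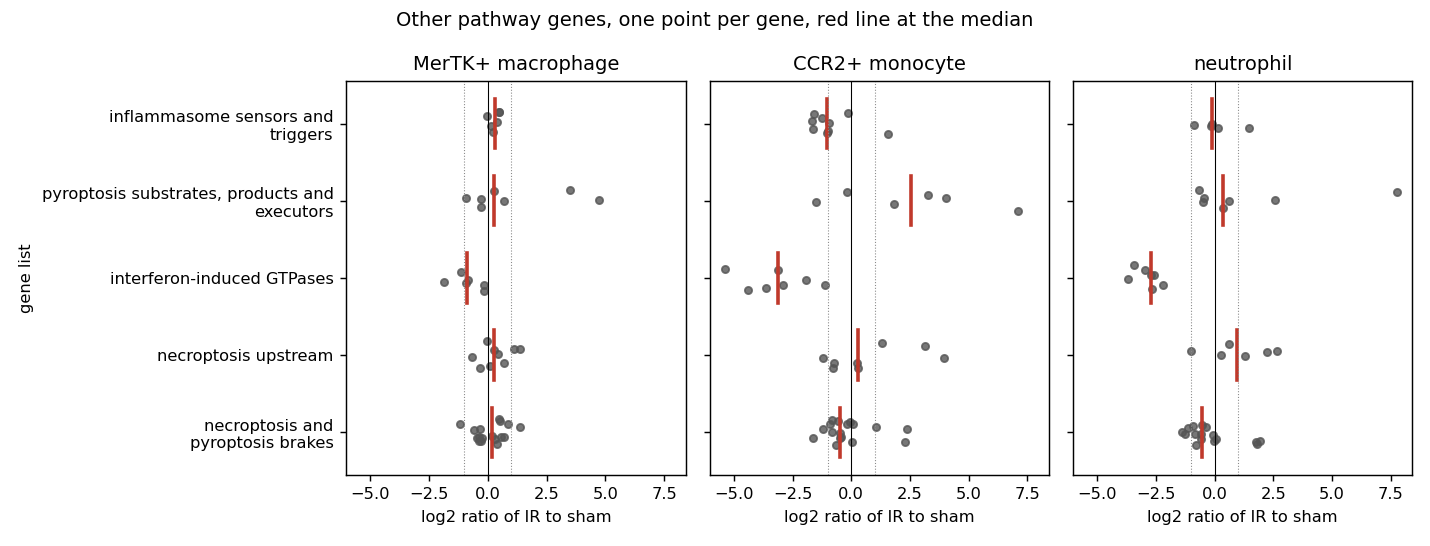
Log2 ratios of IR to sham of the other pathway genes that were tested, by list (rows), in MerTK+ macrophage-like, CCR2+ monocyte-like and neutrophil-like cells. Each point is 1 gene, the red line is the median of the list, and dotted lines mark 2-fold. The medians of the interferon-induced GTPases lie at −0.89, −3.13 and −2.73.

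The other inflammasome sensors and triggers differed in direction between classes. In CCR2+ monocyte-like cells 1 of 9 was higher and 5 were lower (median −1.04), and in MerTK+ macrophage-like cells 0 of 6 passed in either direction (0.31). *Mefv*, which encodes pyrin, was 44.9 and 134 in CCR2+ monocyte-like cells (1.58), while *Txnip* was 293 and 96.6 (−1.60), *Naip6* 26.9 and 8.52 (−1.66) and *Panx1*, a channel gene, 21.4 and 8.996 (−1.25). In neutrophil-like cells 1 of 5 was higher and 0 were lower (−0.13), and in NK-like cells 3 of 6 were higher and 1 lower (0.91), beside 20.2% and 7.92% of all genes. The ratio of *Panx1* was −0.84 without the limit on genes.

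Upstream of necroptosis, 3 of 8 genes were higher and 1 lower in CCR2+ monocyte-like cells (median 0.28), 3 of 6 were higher and 1 lower in neutrophil-like cells (0.94), and 2 of 9 were higher in MerTK+ macrophage-like cells (0.26). *Tnf* was 70.5 and 618 (3.13), *Tlr4* 4.84 and 74.8 (3.95) and *Ifnar1*, a subunit of the type I interferon receptor, 47.7 and 118 (1.31) in CCR2+ monocyte-like cells. *Tlr3*, a sensor of double-stranded RNA, was 8.91 and 3.85 in MerTK+ macrophage-like cells on 122 and 9 UMIs (−1.21), under the limit for testing. Its ratio was −0.66 without the limit on genes. The last list held genes named as brakes on necroptosis or pyroptosis. Of these, 3 of 17 were higher and 2 lower in CCR2+ monocyte-like cells (−0.46), beside 11.4% and 18.1% of all genes. In MerTK+ macrophage-like cells 1 of 17 was higher and 1 lower (0.19), beside 9.23% and 4.72%, and in neutrophil-like cells 3 of 16 were higher and 3 lower (−0.55), beside 13.2% and 17.1%. These counts were near the share of all genes. *Cflar*, whose product pairs with caspase-8, was 80.8 and 414 (2.36) and *Tnfaip3*, which encodes A20, 108 and 529.8 (2.30) in CCR2+ monocyte-like cells. *Mapkapk2*, which encodes a kinase that restrains RIPK1, was 140 and 529 in neutrophil-like cells (1.92). *Serpinb1a*, an inhibitor of neutrophil proteases, had 99 and 2 UMIs in MerTK+ macrophage-like cells (−3.08, −6.14 to −1.19), and a ratio of −0.88 without the limit on genes. At 7.23 and 0.856 CPM it was under the limit for testing and is not the lower gene counted above.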

How the data were processed

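Per the labels and the study's methods, left ventricular cells were sequenced with 10x Chromium 3′ chemistry and aligned to mm10, and the file headers name Cell Ranger 3.1.0. What the authors deposited are raw UMI counts, 1 matrix per condition. Cells with 200 to 2500 genes and at most 30% mitochondrial UMIs were kept (median depth over all barcodes 4599.5 UMIs in sham and 6244 in IR). A class needed UMIs of at least 3 of its markers (2 for dendritic cells) and 20% of a reference marker level. Cells positive for several classes (445 in sham, 193 in IR), possible doublets, and unassigned cells (348 and 389) were left out. Macrophage and monocyte cells were split where 1 panel exceeded the other at least 2-fold. The gate was set after marker distributions were seen, and the members and gene lists were chosen with earlier results of these data known. UMIs were summed per class with at least 30 cells. Intervals are exact Poisson for levels, Clopper–Pearson for shares and conditional binomial for ratios. For floors and ratios a count of 0 became 3 UMIs, and no ratio was given where both counts were at or under 3. With 1 library per condition, no test was run. All 10 members are named. Of the lists, genes at least 2-fold apart with 50 or more UMIs in a macrophage, monocyte or neutrophil class are named, at most 4 per list by size, and for each member the 3 most alike genes, of which 1 is not reported here. Gene positions are from GENCODE M21 on GRCm38. Alternatives changed the filters, gate, denominator, averaging, thinning and fold limit.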

Additional observations from a re-analysis of the deposited data

Results flagged for a closer look

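*Pycard* was at least 2-fold higher in IR in 1 class and at least 2-fold lower in another, with counting intervals that exclude a ratio of 1 in both. The log2 ratio of IR to sham was 1.06 in neutrophil-like cells, on 9 and 377 UMIs, and −1.05 in NK-like cells, on 261 and 48 UMIs. The difference between the classes was not tested, since each class has 1 library per condition.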

How the results depend on the processing

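No paired analysis was possible because the matrices pool the samples of a condition and no barcode names its sample, and no replicate could be left out for the same reason. None of the 33 member ratios past 2-fold changed sign under the alternatives run, while ratios near 0 did, such as *Ripk1* of CCR2+ monocyte-like cells (0.40, and −0.06 without the upper limit on genes). Without the upper limit on genes, CCR2+ monocyte-like cells had 2 members higher and 1 lower in IR, *Nlrp3* had a log2 ratio of 2.94 there, 19 of 230 levels and 19 of 220 thinned shares left their intervals, and 6 of 83 ratios did. With a mitochondrial limit of 10%, 8 classes remained, *Nlrp3* was at least 2-fold higher in 6 of them, and 6 of 190 levels moved. A stricter gate moved 6 levels, the mean over cells 2, and a denominator without mitochondrial, hemoglobin, *S100a8* and *S100a9* UMIs 12 of 230. With the mean over cells, *Nlrp3* of MerTK+ macrophage-like cells had a ratio of 1.01. In cells without *S100a8* and *S100a9* UMIs, chosen after seeing the data, it was 1.80, on 29 IR cells. The IR level of these cells was 443 CPM with the upper limit on genes and 242 without it. Thinning to 2000 UMIs moved 98 of 210 shares. With classes of at least 100 cells, the leading class was kept in 12 of 20 member and library pairs. The total of 33 member ratios past 2-fold ranged from 22 with a mitochondrial limit of 10% to 46 with a limit of 1.5-fold. The depth limits *Mlkl*, *Ripk3* and all members in cardiomyocyte-like and endothelial-like cells.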
